A study of Mus musculus with 2 samples.

Results

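AP-1 and Maf factors are DNA-binding proteins of the basic leucine zipper class, and the genes described here are the 10 family members Batf3, Fos, Fosb, Fosl1, Fosl2, Jun, Junb, Jund, Maf and Mafk, that is, members besides Batf. They were chosen by name, and a probe was taken for a gene when the RefSeq accession given for it on the array belonged to that gene. All 10 genes had a probe, with 13 probes of 41174 on the array, among 18434 genes that could be named. RNA came from CD4 T cells that were taken from the spleen of C57BL/6 mice, sorted magnetically to over 98% purity, stimulated through the T cell receptor and CD28 for 2 days and harvested on day 5. Both groups received 3 ng/ml TGF-beta. To this the Th9 group had 10 ng/ml IL-4 and 1 µg/ml of a monoclonal antibody that blocks IFN-gamma. The Th9+IFNgamma group instead had 3 ng/ml IL-4 together with 10 ng/ml IFN-gamma. The groups therefore differed in added IFN-gamma, in the dose of IL-4 and in the antibody, and effects of these 3 cannot be told apart. Each group was 1 culture on 1 single-colour array of the same slide and scan, the labels give no number of mice, and no test between the groups was possible. In bulk RNA, fewer cells that express a gene and less RNA per cell cannot be told apart.

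A basic leucine zipper protein binds DNA only as a pair. Fos, FosB, Fra-1 (Fosl1) and Fra-2 (Fosl2) do not pair with themselves and need a Jun partner, whereas c-Jun, JunB and JunD can also pair among themselves. Batf and Batf3 are short proteins that pair with Jun proteins and bind next to IRF4 or IRF8 at composite sites of T cell genes. c-Maf (Maf) carries an activation domain and drives Il4, Il10 and Il21 in helper T cells, while the small protein MafK (Mafk) lacks that domain and pairs with Nrf2 or Bach proteins at antioxidant response genes.

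The members went in both directions. Of the 9 members that both arrays read well above background, Fosl2, Batf3, Maf, Fos and Junb (5 genes) were lower in Th9+IFNgamma by 2-fold or more, and Jun (1 gene) was higher by 2-fold or more. Jund, Mafk and Fosb lay within 2-fold, and Fosl1 was well above background on the Th9 array alone. As background, 7.42% of all 12272 genes read on both arrays were lower by this margin, 5.15% were higher and 12.6% passed it in either direction. With median scaling 6.32% were lower and 6.29% higher, nearly equal shares. The median log2 difference (Th9+IFNgamma minus Th9) of the 9 members was -1.08, beside -0.01 over all those genes. The members were chosen with earlier results of these data known, so their contrast with all genes is a description. All 12 probes of these 9 genes had the sign of the gene's value, but that value is itself the gene's brightest measured probe. Only the second probes of Fosl2, Junb and Maf could therefore differ. That of Fosl2 was well above background on the Th9 array alone.

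**Figure D1:**
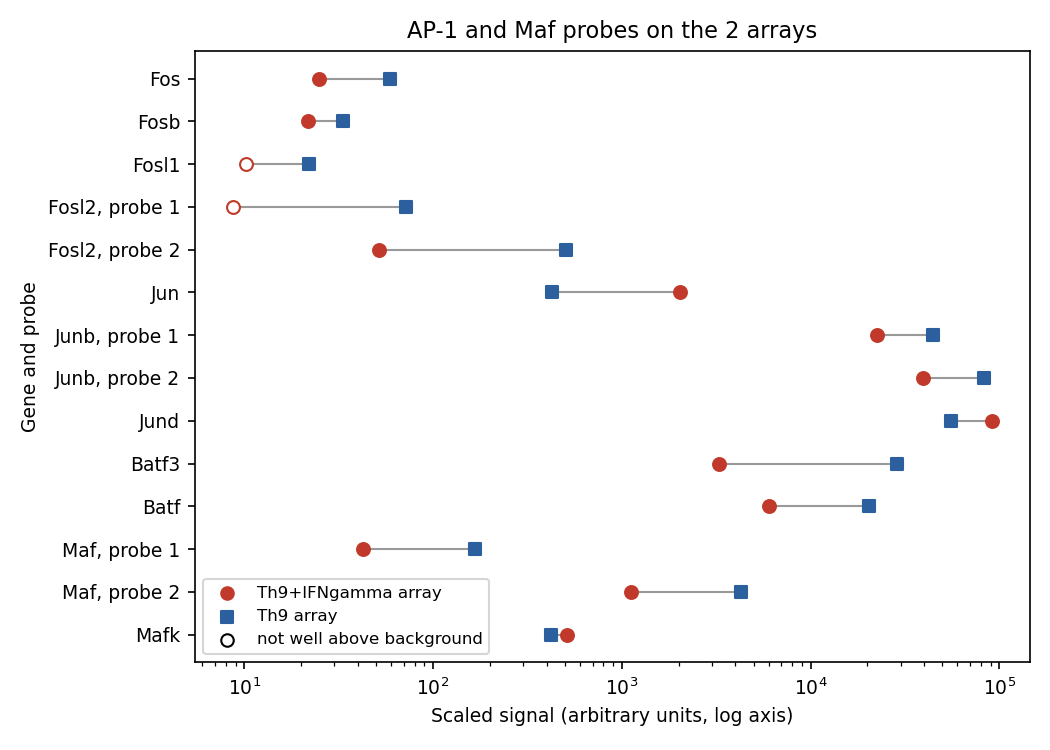
Scaled signal (log axis, arbitrary units) of each probe of the 10 genes and of Batf on the Th9+IFNgamma array (red circles) and the Th9 array (blue squares), with open symbols where a probe was not well above background. Jun, Jund and Mafk lie further right on the Th9+IFNgamma array and every other gene lies further left, and positions compare 1 probe between arrays, not probes with each other.

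Scaled signals are processed intensities after both arrays were set to the same 75th percentile (598.6), and they serve to compare 1 probe between the arrays. The ± after a log2 difference is taken from error values of the extraction software. It was 0.20 for Batf3, Junb and Jund with 1 spot per array, and 0.20 for Jun with 8 and 9 spots. It was thus nearly the same in these probes and not narrowed by repeated spots, so it is not read as measured scatter. Spot noise was measured on 144 probes printed up to 10 times. The log2 differences of their single spots scattered about the mean of the probe with an SD of 0.14. The SD was 0.27 for scaled signals below 64, 0.08 from 64 to 1024 and 0.04 above 1024. Differences between mice, cultures or labelling reactions are in none of these values.

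Fosl2 was among the members with the largest differences. This gene encodes Fra-2, a Fos protein known in Th17 cells for limiting their conversion to other fates. Its brighter probe read 51.6 in Th9+IFNgamma and 504.5 in Th9, a log2 difference of -3.29 ± 0.22 and a 9.78-fold lower signal. The second probe read 71.6 on the Th9 array and in Th9+IFNgamma was not well above background, which gives at least 6.45-fold lower. For such a bound the dim side is taken as the dim probe's own signal or as the lowest detected signal of that array, whichever is higher. Both probes thus placed Fosl2 lower in Th9+IFNgamma, and 66 of the 12272 genes had a larger difference in that direction. With normexp background correction, which keeps an offset of 50 under every signal, the brighter probe's log2 difference was -2.11 (4.32-fold), smaller than that of Batf3 in the same setting (-3.07).

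The other Fos genes were dim on both arrays. Fos, the founding Fos gene and an immediate-early gene of receptor stimulation, is printed 10 times per array. Its spots ran from 51.4 to 66.2 (median 59.2) on the Th9 array, and the 9 spots used on the Th9+IFNgamma array ran from 22.4 to 27.7 (median 25.6). These spots did not overlap between the arrays, but how many other repeatedly printed probes also lacked overlap was not counted. The remaining spot on the Th9+IFNgamma array read 81.1, above all Th9 spots, and was left out because the software had called it an outlier. The mean log2 difference was -1.26 ± 0.25, or 2.40-fold lower in Th9+IFNgamma, and over the 9 paired spot positions it ran from -1.38 to -1.10. With the outlier spot kept it was -1.09, and with normexp -0.61 (1.53-fold), within 2-fold.

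Fosb, whose protein resembles Fos, read 21.8 in Th9+IFNgamma and 33.2 in Th9. Its log2 difference of -0.60 ± 0.28 lay within 2-fold, and with normexp it was -0.32 (1.25-fold). This probe has 1 spot per array, and single spots this dim had an SD of 0.27. Fosl1, which encodes Fra-1, read 22.0 on the Th9 array and in Th9+IFNgamma was not well above background. This bounds Fosl1 at 1.99-fold or more below its Th9 signal, or 1.40-fold with normexp. All 4 Fos genes were thus read lower on the Th9+IFNgamma array. Fosb lay within 2-fold, and the bound for Fosl1 does not place it on either side of that limit.

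**Figure D2:**
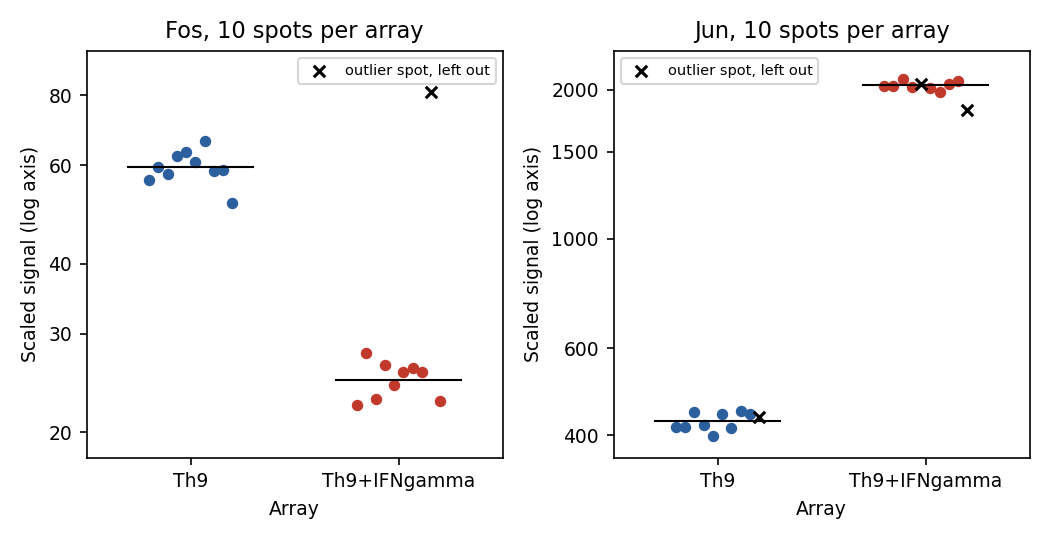
Scaled signal (log axis) of the 10 spots of the Fos probe and of the Jun probe on each array, with black lines at the mean of the spots used and crosses for spots called outliers. Apart from 1 outlier spot of Fos at 81.1, the spots of each gene do not overlap between arrays. Fos is lower and Jun higher on the Th9+IFNgamma array, and the overlap in other repeatedly printed probes was not counted.

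The Jun genes, which supply the partners of Fos and Batf proteins, split. Jun, encoding c-Jun, was the only member higher in Th9+IFNgamma by 2-fold or more, and it too is printed 10 times. The 8 spots used on the Th9+IFNgamma array ran from 1981 to 2101 (median 2035), and the 9 used on the Th9 array ran from 399.5 to 447.1 (median 420.0). The spots did not overlap, again without a count of this among other repeatedly printed probes. Those left out as outliers, at 1823 and 2052 in Th9+IFNgamma and 436.2 in Th9, stayed on the same side. The mean log2 difference was 2.26 ± 0.20, a 4.79-fold higher signal, and 119 genes had a larger one in that direction. It was 2.08 to 2.37 over the other settings.

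Junb, encoding JunB, a partner of Batf and an activator of Il4 together with c-Maf, was lower and close to the 2-fold limit. Its brighter probe read 39494 in Th9+IFNgamma and 83296 in Th9, a log2 difference of -1.08 ± 0.20 (2.11-fold). The other probe read 22397 against 44665 (1.99-fold), so that 1 of 2 probes passed 2-fold. With median scaling the brighter probe gave -0.96 and with normexp -0.99, below the limit. Jund, encoding JunD, a factor known for restraining T cell proliferation, read 91262 in Th9+IFNgamma and 55680 in Th9. That was 1.64-fold higher in Th9+IFNgamma (log2 difference 0.71 ± 0.20), within 2-fold.

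Batf3, known for its requirement in the dendritic cells that cross-present antigen and also expressed in activated T cells, was among the most different members. Its probe read 3267 in Th9+IFNgamma and 28569 in Th9. The log2 difference was -3.13 ± 0.20, an 8.74-fold lower signal, and 79 genes had a larger one in that direction. Over the other settings it ran from -3.18 to -3.01. Batf itself was 3.39-fold lower (6016 against 20375). Batf3 was thus further apart than its relative, although 1 probe each on 1 pair of arrays gives no test of that difference.

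Dendritic cell markers were dim in both cultures, with scaled signals of 11.6 to 86.8 where detected. Of 5 such genes with a probe, Zbtb46, Flt3 and Xcr1 were read on both arrays and lay within 2-fold, with a summed scaled signal of 142 in Th9+IFNgamma and 156 in Th9. On neither array were Itgax and Siglech well above background. The 8 T cell markers Cd3d, Cd3e, Cd3g, Cd4, Cd5, Cd28, Thy1 and Lck were all well above background and within 2-fold. Of the B cell markers, Cd79b (844 against 1187) and Ms4a1 lay within 2-fold, Cd79a was detected only in Th9 and Pax5 on neither array. Cd8a, a marker of CD8 T cells, lay within 2-fold and read 1338 against 1074. Among macrophage markers Adgre1 was 7.19-fold lower in Th9+IFNgamma by 1 probe (25.8 against 185.6; log2 difference -1.45 with normexp), while Csf1r and Cd14 lay within 2-fold and Lyz2 and Itgam were not well above background. The 2 natural killer cell markers gave Klrb1c at 20.5 against 39.2 and Ncr1 not well above background. Of 4 neutrophil and mast cell markers only Mcpt4 was detected, and only in Th9 (a bound of 9.10-fold lower in Th9+IFNgamma, and a log2 bound of -1.28 with normexp). The part of these cell types in the members' differences was not tested.

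The large and the small Maf gene also differed. Maf was lower by both of its probes. The brighter probe read 1117 in Th9+IFNgamma and 4288 in Th9, a log2 difference of -1.94 ± 0.20 (3.84-fold). The dimmer one read 42.5 against 167.6, a difference of -1.98 ± 0.22 (3.95-fold). The probes thus gave nearly the same fold at different brightness, and the value ran from -1.99 to -1.83 over the other settings. Mafk read 510.6 against 421.0, a log2 difference of 0.28 ± 0.20 and within 2-fold.

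**Figure D3:**
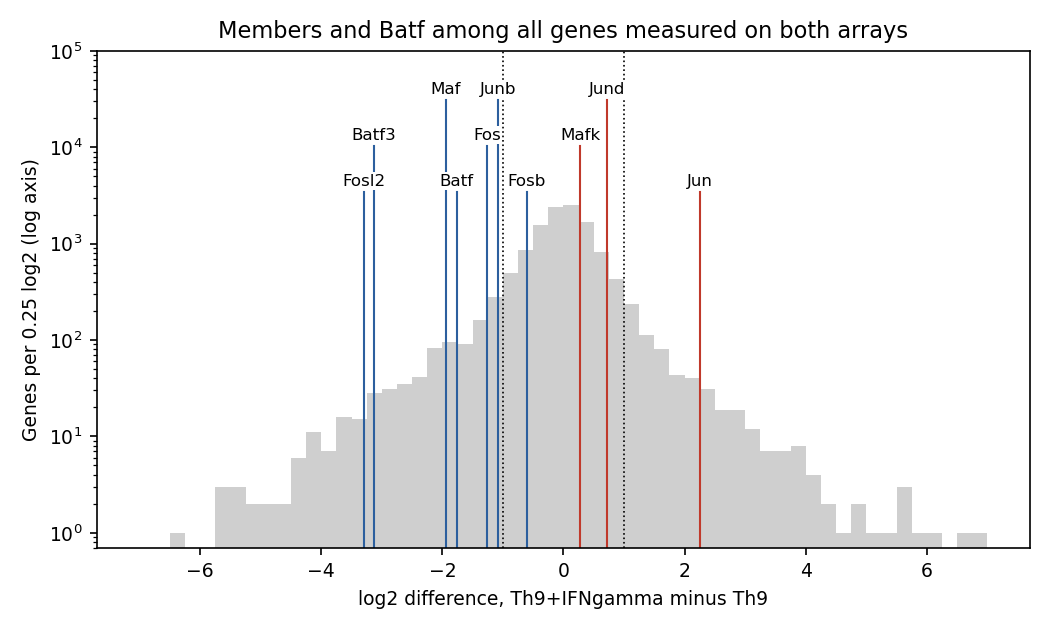
Number of genes per 0.25 log2 (log axis) by log2 difference, Th9+IFNgamma minus Th9, for the 12272 genes measured on both arrays, with lines for the 9 measured members and Batf and dotted lines at 2-fold. Fosl2 and Batf3 lie beyond -3, Maf and Batf between -2 and -1.5, and Jun beyond 2.

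Sequence upstream of the start site was looked at for the members. RefSeq promoter sequences (GRCm38.p6) were at hand for 8 of the 10. Maf and Fosl1 had no entry. The 250 bases before the start were searched on both strands for 3 patterns. These were TGANTCA (the AP-1 site), TGANNTCA (its form with 1 more base, as in the cyclic AMP response element) and TTCNNNGAA (the GAS site of STAT factors), which do not overlap in the matches found. The shares of all 32851 promoters with a match were 6.75%, 11.9% and 7.02%. Shown are Jun, the member higher by 2-fold or more, and Batf3, a member with a much lower signal, because each has a match, which is printed in capitals.
Jun, chr4:95052223-95052472, minus strand: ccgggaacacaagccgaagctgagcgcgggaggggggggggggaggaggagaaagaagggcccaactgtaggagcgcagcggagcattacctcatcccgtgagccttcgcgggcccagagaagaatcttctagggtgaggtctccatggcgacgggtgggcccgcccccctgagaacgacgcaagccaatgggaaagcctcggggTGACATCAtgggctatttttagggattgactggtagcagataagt
Batf3, chr1:191098164-191098413, plus strand: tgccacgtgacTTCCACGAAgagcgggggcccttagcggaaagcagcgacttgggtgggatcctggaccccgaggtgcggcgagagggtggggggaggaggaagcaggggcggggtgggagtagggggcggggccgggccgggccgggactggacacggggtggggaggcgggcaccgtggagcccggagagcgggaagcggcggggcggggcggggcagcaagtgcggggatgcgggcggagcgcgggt

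The Jun sequence holds TGACATCA, whose first base lies 45 bases before the start, and Jund has another match to that pattern, TGAAATCA, 61 bases before its start. The Batf3 sequence holds TTCCACGAA, beginning 239 bases before the start. None of the 8 members had TGANTCA in this window, which says only that these letters are not there. A match is a string of letters and not a measured binding site.

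The partners, upstream kinases and target genes were taken from 7 lists, and the shares of all genes past 2-fold given above apply to them too. Of 17 other AP-1 and Maf relatives and partners, 11 were measured on both arrays. By the 2-fold rule 3 of these were lower in Th9+IFNgamma and 1 higher, and their median log2 difference was -0.25. Jdp2, a repressor that pairs with Jun proteins, read 333.7 against 1489 (4.46-fold lower), Batf followed, and Maff, a small Maf, was 2.12-fold lower. Atf3, a stress-induced factor that pairs with Jun, was 2.32-fold higher (3041 against 1311). Batf2, an interferon-inducible relative of Batf, was detected only on the Th9+IFNgamma array, where it was at least 4.97-fold higher (log2 bound 0.61 with normexp). Nfe2, a partner of small Maf proteins, was likewise detected only on that array, with a bound of at least 2.67-fold higher (log2 bound 0.29 with normexp). Nfe2l2, Bach1 and Bach2, also partners of MafK, and its relative Mafg lay within 2-fold.

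Most genes that act on AP-1 activity lay within 2-fold, as did most of all genes measured on both arrays, of which 12.6% passed it. Of 16 measured MAP kinases, their activators and other regulators, 15 lay within 2-fold, and the median was -0.01. The exception was Mapk11, a p38 kinase, 2.30-fold lower in Th9+IFNgamma (log2 difference -1.01 with normexp). Mapk8, which encodes the kinase JNK1 that phosphorylates c-Jun, was 1.66-fold lower by its brighter measured probe, and the log2 difference of the other probe was -1.33. Of 5 NFAT and IRF partners of AP-1, Irf8 was 4.02-fold higher (33228 against 8261), and the other 4 lay within 2-fold, with Irf4 at 3912 against 6736.

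Immediate-early genes, which share rapid induction with Fos and Jun, were mixed. By the 2-fold rule 3 of the 13 measured were lower in Th9+IFNgamma and 1 higher, and the median was -0.30. Egr2, a zinc finger factor induced through the T cell receptor, was 8.15-fold lower (104.4 against 851.4; log2 difference -2.41 with normexp), and the nuclear receptor gene Nr4a2 was 6.96-fold lower (83.5 against 581.1). Ier3 was 2.82-fold lower. Dusp2, a phosphatase of MAP kinases, was 2.97-fold higher. Ier2, Dusp1, Zfp36 and Btg2 lay within 2-fold.

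Of 8 genes listed as targets of c-Maf in T cells, both arrays measured 4, all of them lower in Th9+IFNgamma by more than 2-fold (median -3.41). Whether c-Maf raises or lowers each listed gene in these cultures was not tested. Il10 read 487.9 against 5798, Il4 130.0 against 2787, and Ccr6, a chemokine receptor gene, 114.5 against 1081. The costimulatory receptor gene Icos, named after its value was seen, read 8928 against 29361. A further 3 genes were detected only on the Th9 array, each with a bound past 2-fold. Among them was Il21 (at least 5.12-fold lower), likewise picked after its value was seen. Bounds of this list shrank with normexp, to a log2 value of -0.88 for Il21. On neither array was Il23r well above background. This list was drawn up with the low signals of several of its genes already known, so its direction is a description.

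Target genes of the other factors did not share one direction. Of 7 measured activation genes that depend on AP-1, 2 were higher in Th9+IFNgamma by the 2-fold rule, 0 were lower, and the median was 0.43. That median was the value of Cd40lg, dim on both arrays (19.4 against 14.3; log2 difference -0.08 with normexp). With normexp the 5 genes within 2-fold ran from -0.42 (Il13) to 0.24 (Il3), so the sign of the median rests on the setting. Cd69, an early activation marker, was 5.06-fold higher (984.4 against 194.5) and Tnf 3.18-fold higher (3815 against 1200). Il5 was detected only in Th9, with a bound of at least 8.05-fold lower in the other culture (a log2 bound of -1.22 with normexp). On neither array was Il2 well above background. Of 11 measured antioxidant response genes, to which MafK binds with its partners, 2 were higher by the 2-fold rule and 1 was lower, and the median was 0.17. Nqo1, a quinone reductase, was 5.55-fold higher (117.8 against 21.2; log2 difference 0.92 with normexp) and Osgin1 3.15-fold higher, while Srxn1, a sulfiredoxin, was 2.89-fold lower by its brightest probe, another of its probes giving a log2 difference of -0.87.

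**Figure D4:**
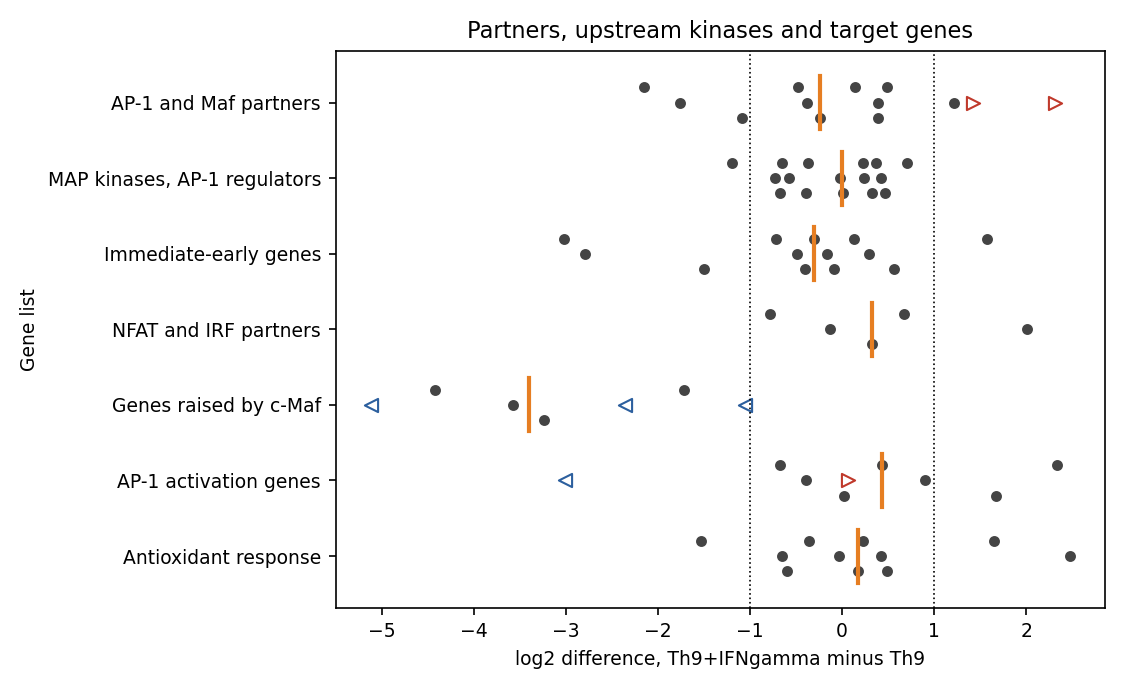
Log2 difference, Th9+IFNgamma minus Th9, of genes in the 7 lists of partners, regulators and targets, with dots for genes measured on both arrays, open triangles for bounds of genes detected on 1 array, orange bars at list medians and dotted lines at 2-fold. The detected genes of the c-Maf list all lie past 2-fold lower in this setting. Of the kinase list 15 of 16 genes lie within 2-fold, and of all genes measured on both arrays 12.6% passed it.

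The direction of each of the 9 measured members held in every setting tried. Fosl2, Batf3, Maf and Jun stayed past 2-fold throughout, whereas Fos and Junb crossed the limit in some settings.

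**Figure D5:**
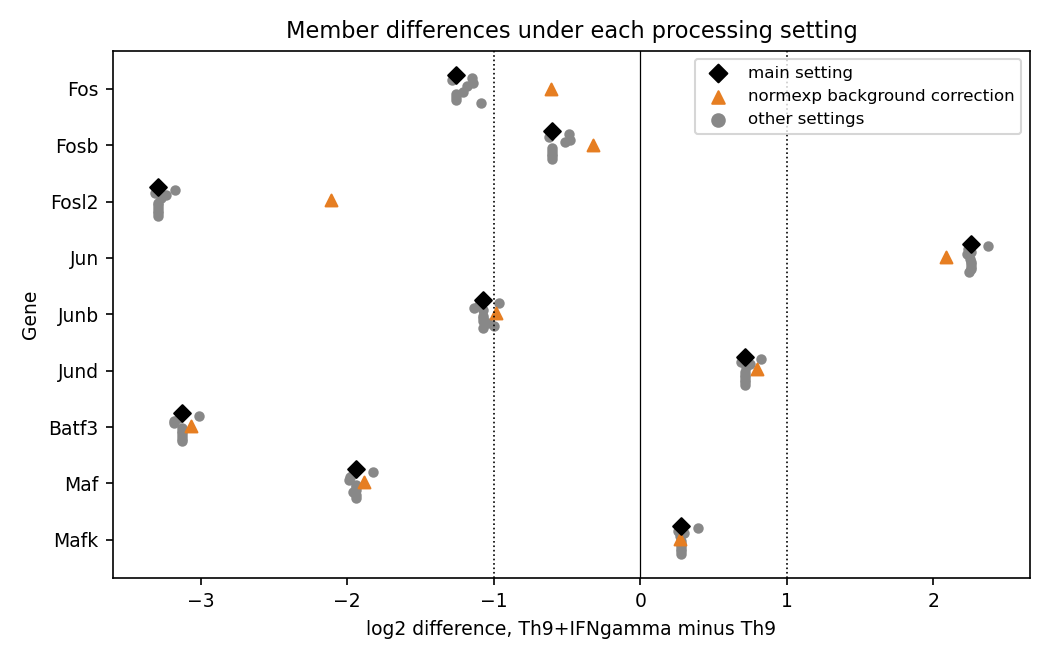
Log2 difference of the 9 members measured on both arrays in the main setting (black diamonds), with normexp (orange triangles) and in the other settings (grey dots), with dotted lines at 2-fold. No member changes sign, and the largest move is that of Fosl2 from -3.29 to -2.11 with normexp.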

How the data were processed

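Total RNA (500 ng) of 2 cultures was labelled with Cy3 and hybridised to 1 array each, per the labels. The deposited intensity columns are output of Agilent Feature Extraction 10.7.3.1 according to their headers, which per the file headers subtracts background and removes trends within an array, with no scaling between arrays. Its flags marked detection (well above background) and outlier spots. A deposited table of log2 values matched log2 of the median processed signal minus the array's 75th percentile to a constant (SD 2.5e-07 or less), so its direction and scale are known, with column medians of -4.05 and -3.93.

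Here log2 processed signals were averaged over a probe's spots without outliers and scaled to the 75th percentile (631.9 for Th9+IFNgamma and 567.0 for Th9). Each gene is represented by the brightest of its probes detected on both arrays. Of the probes, 27050 (65.7%) matched 1 gene of GRCm38.p6 RefSeq by accession, 0 matched several and 14121 matched none. On the arrays 60.6% and 59.9% of probes were well above background and 0 spots were saturated. The array headers name another genome build, so no probe positions are given. With 1 array per condition no p-value was computed, and genes past 2-fold are counted. The number of arrays limits the precision.

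The members and all lists were chosen with earlier results of these data known. Named are every member, Batf, up to 3 genes per list and direction past 2-fold whose probes agree in sign, and the largest bounds; some genes of the lists are not reported here. Alternatives covered scaling, normexp (limma 3.58.1, R 4.3.3, offset 50), the deposited table, filters, probe rules and fold thresholds. The calculation was tested on simulated data. Other steps used Python 3.11.15.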

Additional observations from a re-analysis of the deposited data

How the results depend on the processing

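None of the 9 measured members changed direction under any of the 11 alternatives of scaling, background, filter, probe rule and source of values that gave it a value (a signal of at least 100 left out Fos and Fosb). Not all of these could have changed it: for a gene with 1 probe measured on both arrays, the probe rules return the main value. All alternatives also use the same 2 arrays. With normexp on the median spot signal (run in place of the mean signal, and like the keeping of outlier spots chosen after seeing the data), 3 members were lower by the 2-fold rule in place of 5, and the members' median was -0.61 in place of -1.08. With a 3-fold threshold 3 members were lower, and with a 1.5-fold threshold 2 were higher in place of 1. The shares of all genes past these thresholds were not counted, so these counts have no background beside them. All other alternatives left 4 to 6 members lower and 1 higher. Normexp moved the single values of Fos, Fosb, Fosl1, Fosl2 and Jun by more than the spot SD of 0.14. Over all genes, normexp left 582 lower in place of 910, and with no filter on dim probes 1205 were higher and 1788 lower in place of 632 and 910. Median scaling raised all differences by 0.11, and 772 genes were then higher and 776 lower. The cause of these shifts was not tested.

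No paired analysis was possible because each group has 1 sample. Leaving out a replicate was not possible for the same reason. Signal over background limits Fos, Fosb, Fosl1, both probes of Fosl2 and the dimmer probe of Maf, which were read below a scaled signal of 64 on the Th9+IFNgamma array.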

Other observations

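Probes of 1 gene gave unequal values in a few partners of AP-1. Nfatc1, an NFAT factor that binds with AP-1, had log2 differences (Th9+IFNgamma minus Th9) of 0.67 and 1.24 by its 2 measured probes, so that only the dimmer one passed 2-fold. Atf2, which pairs with c-Jun, had 4 measured probes from -0.14 to 0.68. The 3 Jun genes, by contrast, had differences of 2.26 for Jun, 0.71 for Jund and -1.08 for Junb, each beyond the spot SD of 0.14. Klf6, an immediate-early factor, was 1.65-fold lower in Th9+IFNgamma, and Srf, which acts on the Fos promoter, 1.60-fold lower, both within 2-fold.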
